A study of Mus musculus with 7 samples.

Results

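Uptake of dietary fat and its packing into chylomicrons was followed through 10 genes in the terminal ileum of mice: Cd36, Fabp1, Fabp2, Mogat2, Dgat1, Mttp, Apob, Apoa1, Apoa4 and Apoc3. The genes were chosen by name for their roles, and a probe set was taken only where the platform annotation names 1 of them and no other gene. That gave 20 probe sets of the 34945 in use, and no probe set names a member together with another gene. All 10 genes lay above the filter on low signals, among 13644 genes tested. Penicillin had been given at 6.7 mg/L from birth to 4 mice, and 3 control mice had received no antibiotic. All 7 were C57BL6J males aged 8 weeks, weaned at 4 weeks and fed the high-fat diet D12451, with 45% of its energy as fat, from 6 weeks of age. Each array is labelled as a biological replicate and is read here as 1 mouse. Litter, cage and the route of dosing were not given in the sources used here, and differences of litter or cage between the groups cannot be told apart from penicillin.

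Enterocytes, the absorptive cells of the intestinal epithelium, take up the fatty acids and monoacylglycerols that lipases release in the lumen. Inside the cell these are joined again into triglyceride, which the microsomal transfer protein loads onto apolipoprotein B. The particle, a chylomicron, gains further apolipoproteins on its surface and leaves by the lymph. Most dietary fat is known to be absorbed in the upper small intestine, and the ileum takes up what passes further down.

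No member was called different between penicillin and control mice. In penicillin mice 9 of the 10 genes had the higher mean, with a median log2 difference of 0.34 over the members, beside -0.01 over all genes tested. The largest was Apoa4, an apolipoprotein of the chylomicron surface, at 0.90 ± 0.42 (SE), a 1.87-fold difference. Cd36, a fatty acid receptor, was the member with the lower mean, at -0.30 ± 0.33 (SE). Most of the shift came with 1 control array: without control replicate 3 the median over the members was 0.08. Apoa4 then had 0.66 ± 0.47 and Cd36 had 0.10 ± 0.23 (SE).

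Differences throughout are penicillin minus control on the log2 scale, from limma, and a gene counted as called at a Benjamini-Hochberg adjusted p under 0.05 over all genes tested. With that rule 0 of 10 members were called, while 0.0953% of all genes tested were called. At an unadjusted p under 0.05 there was 1 member, Fabp2, or 1 of 10, against 10.7% of all genes. The groups overlapped, or touched at an equal value, in all 10 members, where 10.3% of all genes had groups that did not overlap. A higher mean in penicillin mice was found in 45.3% of all genes. Without control replicate 3 again 0 of 10 members were called, with 0.0586% of all genes called, and 0 members had an unadjusted p under 0.05, with 10.6% of all genes. The mean was then higher in penicillin mice for 9 of 10 members and for 48.4% of all genes. The members that had the lower mean differed, Cd36 with all arrays and Mttp without that array. In bulk tissue, fewer enterocytes and less RNA per enterocyte cannot be told apart.

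An array of the control group, control replicate 3, was unlike the other 6. Its correlation with them over all probe sets lay between 0.9919 and 0.9953, and the other arrays correlated with one another at 0.9957 or above. It was the lowest of the 7 arrays for 8 of the 10 members, against 21.6% of all genes tested. For Cd36 it was the highest array, as it was for 30.2% of all genes. The mean of 16 absorptive enterocyte markers, relative to the mean over the 7 arrays, was -0.01, 0.11, 0.67 and 0.10 in penicillin mice and 0.09, 0.05 and -1.02 in control mice, with control replicate 3 last. All 16 were lowest in that array. Ileal enterocyte markers stood between -0.07 and 0.27 in penicillin mice, and at 0.23, 0.29 and -0.74 in control mice. Fabp6, the ileal bile acid carrier that defines these cells, was between 14.37 and 14.64 in penicillin mice and between 14.28 and 14.49 in control mice, close to the highest value of the arrays, 14.75. Values that near the top may understate differences. Cubn, a vitamin B12 receptor of the ileum, was between 11.97 and 12.40 in penicillin mice, and at 12.40, 12.05 and 10.61 in control mice, with control replicate 3 lowest. The colon genes Car1 and Aqp8 were at 14.10 and 8.27 in control replicate 3. Elsewhere Car1 ran from 5.11 to 10.82 and Aqp8 from 3.86 to 4.29. Slc26a3, the other of the 3 colon genes tested, did not stand out, at 11.47 in that array and 11.13 to 11.57 elsewhere. The mean of 6 adipocyte markers was 0.04, -0.59, -0.14 and 0.27 in penicillin mice, and -0.43, -0.10 and 0.95 in control mice.

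**Figure D1:**
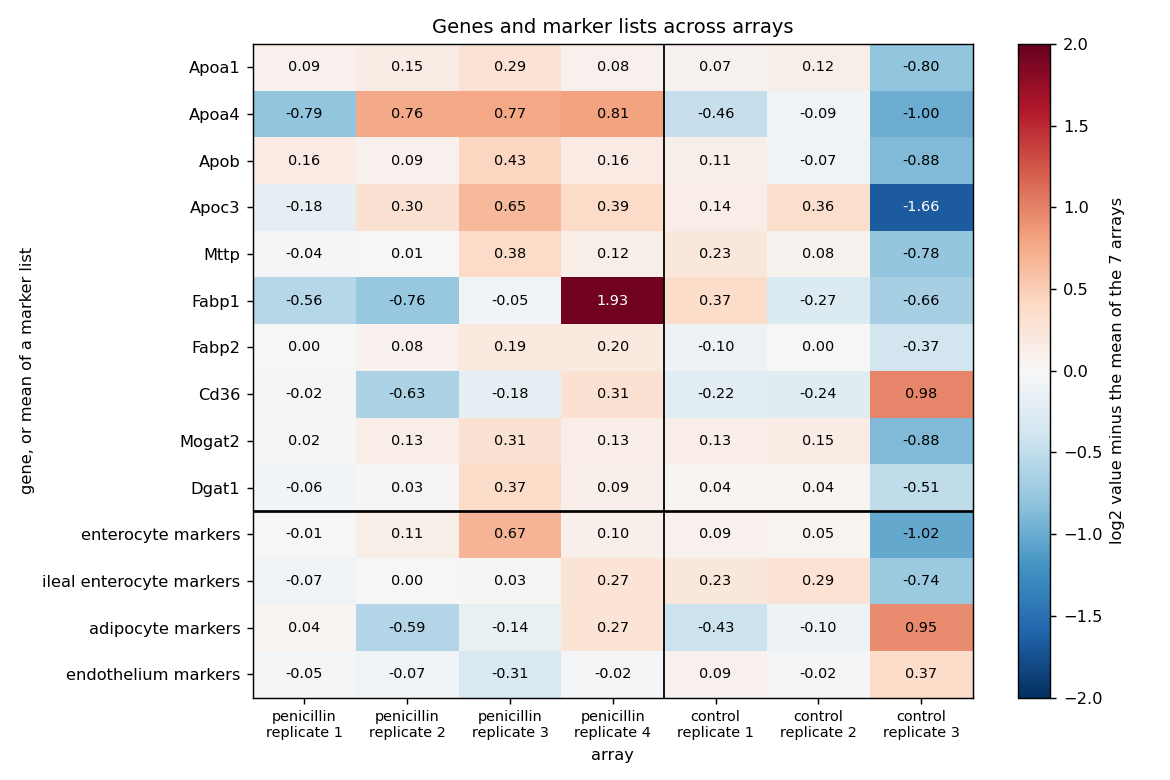
Each cell gives the log2 value of a gene, or the mean of a marker list, minus its mean over the 7 arrays, with arrays in columns and a line between the penicillin and control groups. Control replicate 3 is low for all members but Cd36, at 0.98, and low for the enterocyte markers, at -1.02, while penicillin replicate 3 is high for the enterocyte markers, at 0.67.

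Cd36 stands at the start of the route: it is a membrane glycoprotein that binds long-chain fatty acids on enterocytes, and it is also abundant in fat cells, capillary endothelium and macrophages. Its brightest probe set had 10.04, 9.44, 9.88 and 10.37 in penicillin mice, against 9.84, 9.82 and 11.04 in control mice. The penicillin values lay on both sides of the first 2 control values, and control replicate 3 was above all other arrays. The difference was -0.30 (95% interval -1.08 to 0.48, adjusted p = 0.727). All 3 probe sets had their highest value in control replicate 3, which exceeded the mean of the other control arrays by 1.22, 1.34 and 1.57. Without it the 3 differences were 0.10, 0.11 and 0.32.

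The adipocyte, endothelial and macrophage marker lists also had their highest mean in control replicate 3, and their part in the Cd36 values was not tested. Adipoq, the fat cell hormone adiponectin, had 11.77, 11.07, 11.34 and 11.78 in penicillin mice, and 11.42, 11.54 and 12.81 in control mice. Its lowest array was penicillin replicate 2 and its highest control replicate 3, as for Cd36. Plin4, a lipid droplet protein, was also lowest in penicillin replicate 2, at 8.84, and highest in control replicate 3, at 10.51. Cidec and Retn had the same lowest and highest arrays, and the other markers did not. Lep was highest in control replicate 3 but lowest in control replicate 1. Pck1 was lowest in control replicate 2 and highest in penicillin replicate 3. Of the 6 adipocyte markers tested 0 were called, 4 had the lower mean in penicillin mice, and the median was -0.31, or 0.06 without control replicate 3. Endothelial markers had means between -0.31 and -0.02 in penicillin mice, and 0.09, -0.02 and 0.37 in control mice. Emcn, an endothelial sialomucin, differed by -0.44 and Gpihbp1, which anchors lipoprotein lipase, by -0.33, with 0 of 6 tested markers called. Without control replicate 3 these differences were -0.41 and -0.07, and the median of the 6 was -0.09, against -0.28 with all arrays. Macrophage markers had means between -0.28 and 0.11 in penicillin mice and -0.07, 0.02 and 0.37 in control mice, with 0 of 7 called, C1qa at -0.35 and Csf1r at -0.34. Without that array C1qa was at -0.23 and Csf1r at -0.23, and the median of the 7 was -0.06, against -0.17 with all arrays.

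Inside the enterocyte, fatty acids are carried by 2 binding proteins. Fabp2, the intestinal form, had 14.38, 14.46, 14.57 and 14.58 in penicillin mice, against 14.27, 14.38 and 14.01 in control mice. The lowest penicillin value equalled the highest control value to every deposited digit, so the groups touched without crossing. The difference was 0.27 (95% interval 0.05 to 0.50), with an adjusted p of 0.413 in limma. Without control replicate 3 it was 0.17 (adjusted p = 0.486). Values of this size are close to the highest the arrays reached, and differences there may be understated.

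Fabp1, the liver form, which the intestine also makes and most strongly in its upper part, varied more than any other member within the penicillin group. It had 8.59, 8.40, 9.10 and 11.08 in penicillin mice, against 9.52, 8.89 and 8.50 in control mice. Penicillin replicate 4 was above every other array, and the other penicillin values lay among or just below the control values. The difference was 0.33 (95% interval -1.13 to 1.78, adjusted p = 0.844). Without penicillin replicate 4 it was -0.27 (adjusted p = 0.738). The other probe set, with 7.29, 7.37, 8.05 and 10.08 in penicillin mice and 8.48, 8.05 and 7.37 in control mice, was likewise highest in penicillin replicate 4. Proximal markers had their highest mean elsewhere, at 0.09 in penicillin replicate 4, against 0.27 in control replicate 2. Single markers were split. Gata4 and Cybrd1 were highest in penicillin replicate 4, at 4.97 and 6.14. Adh6a, Slc40a1 and Slc46a1 were highest in control replicate 2, and Bche in penicillin replicate 3. The mean of the 4 hepatocyte genes tested was highest in penicillin replicate 4. It was 0.19, -0.52, 0.16 and 0.47 in penicillin mice, and -0.51, 0.09 and 0.12 in control mice. Of its members Ttr, a thyroid hormone carrier, Alb, serum albumin, and Apoh, a plasma glycoprotein, were highest in that array too, at 9.50, 7.95 and 6.53, and Cyp2e1 was not. The part of these genes in the Fabp1 values was not tested.

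**Figure D2:**
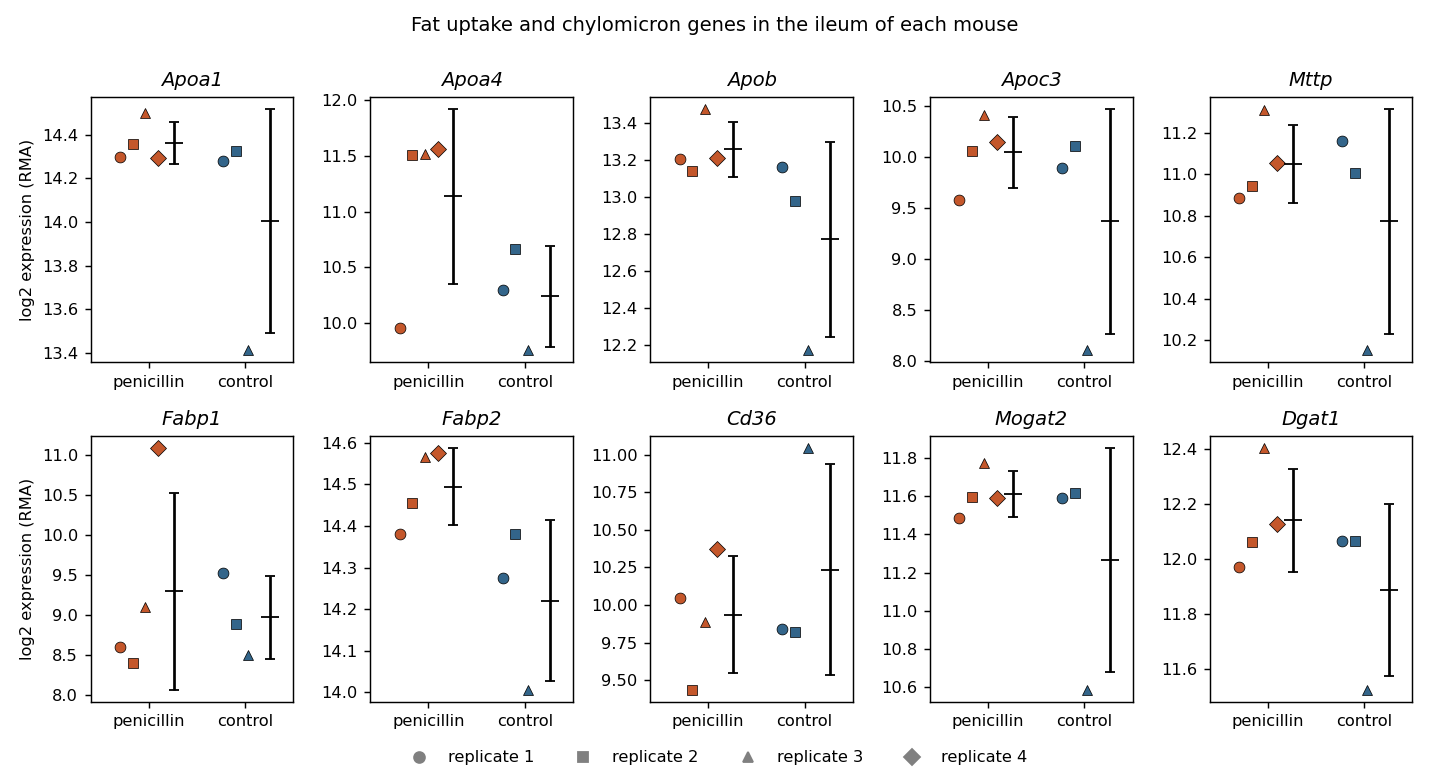
Each panel shows the log2 expression of 1 gene in every mouse, penicillin left of control, with marker shapes for the replicate number and a bar at the mean with its SD (n = 4 penicillin, n = 3 control). Scales differ between panels. Control replicate 3 is the lowest point in 8 panels and the highest for Cd36, at 11.04, and penicillin replicate 4 stands alone for Fabp1, at 11.08.

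Re-esterification begins with Mogat2, the monoacylglycerol acyltransferase of the intestine, and ends with Dgat1, a diacylglycerol acyltransferase. Mogat2 had 11.49, 11.60, 11.77 and 11.59 in penicillin mice, against 11.59, 11.62 and 10.59 in control mice. Control replicate 3 lay about 1 log2 unit below the rest, by 1.02 from the mean of the other controls, and the remaining 6 values spanned 11.49 to 11.77. The difference was 0.35 (95% interval -0.21 to 0.91, adjusted p = 0.588), and 0.01 (95% interval -0.19 to 0.21) without that array. Dgat1 had 11.97, 12.06, 12.40 and 12.13 in penicillin mice, against 12.07, 12.07 and 11.52 in control mice. The first 2 control values lay inside the penicillin range. Dgat1 differed by 0.25 (95% interval -0.11 to 0.62, adjusted p = 0.562), and by 0.07 without control replicate 3. Its dimmer probe set differed by 0.12, or -0.10 without that array.

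Lipid is loaded by Mttp, the large subunit of the microsomal triglyceride transfer protein. Mttp had 10.89, 10.94, 11.31 and 11.05 in penicillin mice, against 11.16, 11.01 and 10.15 in control mice. Apart from control replicate 3 the groups were interleaved. Mttp differed by 0.28 (95% interval -0.27 to 0.82, adjusted p = 0.652), and by -0.03 (95% interval -0.33 to 0.26) without that array. Its other probe set differed by 0.30, and by -0.07 without it. P4hb, protein disulfide isomerase, which is the small subunit of the same complex, differed by -0.04.

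Apob encodes the scaffold of the particle, which the intestine makes in a shortened form by editing the mRNA. It had 13.21, 13.14, 13.48 and 13.21 in penicillin mice, against 13.16, 12.98 and 12.17 in control mice. Only the lowest penicillin value lay below the highest control value. Apob differed by 0.49 (95% interval -0.03 to 1.00, adjusted p = 0.488), and by 0.19 (95% interval -0.07 to 0.44) without control replicate 3. The dimmer probe set, with 8.32 to 8.69 in penicillin mice and 8.71, 8.50 and 7.41 in control mice, did not separate the groups in the same way. It differed by 0.27, and by -0.13 without that array. Apobec1, the editing enzyme, differed by 0.04 and A1cf, its RNA-binding partner, by 0.21, neither called.

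Apoa1, Apoc3 and Apoa4 are neighbours on mouse chromosome 9, where the RefSeq table lists them in that order, with Apoa5 next. Apoa1, the main protein of high-density lipoprotein and also a chylomicron component, had 14.30, 14.36, 14.50 and 14.29 in penicillin mice, against 14.28, 14.33 and 13.41 in control mice. The first 2 control values differed from the penicillin mean by less than its SD of 0.0955. Apoa1 differed by 0.36 (95% interval -0.13 to 0.85, adjusted p = 0.553), and by 0.06 (95% interval -0.11 to 0.23) without control replicate 3. All 4 of its probe sets behaved alike, with differences of 0.36 to 0.38 and of 0.04 to 0.06 without that array. Like those of Fabp2, they lay close to the highest values of the arrays.

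Apoc3, an apolipoprotein that slows lipolysis of triglyceride-rich particles, had 9.58, 10.06, 10.41 and 10.15 in penicillin mice, against 9.90, 10.12 and 8.10 in control mice. Control replicate 3 was 1.90 below the mean of the other controls, the widest such gap among the members' probe sets. Apoc3 differed by 0.68 (95% interval -0.40 to 1.76, adjusted p = 0.585), and by 0.04 (95% interval -0.47 to 0.55) without that array.

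Apoa4, which is made chiefly by enterocytes and is known for its response to fat feeding, kept the largest difference when control replicate 3 was left out. Its brighter probe set had 9.96, 11.51, 11.52 and 11.56 in penicillin mice, against 10.30, 10.66 and 9.75 in control mice. Penicillin replicates 2, 3 and 4 were above every control array, and penicillin replicate 1 was below the first 2 of them. Apoa4 differed by 0.90 (95% interval -0.07 to 1.87, adjusted p = 0.493). Without control replicate 3 the difference was 0.66 (95% interval -0.46 to 1.77, adjusted p = 0.650). Without penicillin replicate 1 it was 1.29 ± 0.21 (SE, adjusted p = 0.221), and leaving out the lowest penicillin value raises it by construction. Without penicillin replicate 2, 3 or 4 it was 0.78, 0.77 or 0.76. The dimmer probe set had 8.22, 9.48, 10.10 and 10.28 in penicillin mice, against 8.29, 9.23 and 8.32 in control mice. The brighter set, and all but 1 of those of Apoa1, carry the manufacturer's suffix for probes that may also match other transcripts. In the dimmer set the same 3 penicillin arrays lay above the controls, with a difference of 0.90 ± 0.49 (SE), or 0.76 without control replicate 3. Apoa5, next in the cluster and known mainly from liver, was at 5.26 to 5.40 in penicillin mice and 5.24 to 5.29 in control mice, and differed by 0.07.

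The promoter sequences below, of RefSeq with build GRCm38.p6, are shown for Apoa4, which had the largest difference, and for the 4 members in which a searched motif was found. Each runs 5′ to 3′ from 250 bases before to 50 bases after the gene's start, and capitals mark motif matches. They lie at chr9:46240594-46240893 on the plus strand for Apoa4, chr9:46228380-46228679 (plus) for Apoa1, chr12:7977427-7977726 (plus) for Apob, chr6:71199629-71199928 (plus) for Fabp1 and chr3:122894822-122895121 (plus) for Fabp2.
Apoa4: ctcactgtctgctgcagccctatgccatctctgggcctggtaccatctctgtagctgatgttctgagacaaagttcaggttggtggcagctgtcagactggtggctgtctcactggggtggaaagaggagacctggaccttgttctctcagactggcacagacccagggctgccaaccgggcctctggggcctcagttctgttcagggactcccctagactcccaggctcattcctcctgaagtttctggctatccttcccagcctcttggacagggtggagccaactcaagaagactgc
Apoa1: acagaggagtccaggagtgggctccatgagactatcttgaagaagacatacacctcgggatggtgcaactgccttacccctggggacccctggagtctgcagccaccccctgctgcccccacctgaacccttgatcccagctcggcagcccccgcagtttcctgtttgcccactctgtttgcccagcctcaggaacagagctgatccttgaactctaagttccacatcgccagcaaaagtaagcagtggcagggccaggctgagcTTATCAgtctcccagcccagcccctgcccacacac
Apob: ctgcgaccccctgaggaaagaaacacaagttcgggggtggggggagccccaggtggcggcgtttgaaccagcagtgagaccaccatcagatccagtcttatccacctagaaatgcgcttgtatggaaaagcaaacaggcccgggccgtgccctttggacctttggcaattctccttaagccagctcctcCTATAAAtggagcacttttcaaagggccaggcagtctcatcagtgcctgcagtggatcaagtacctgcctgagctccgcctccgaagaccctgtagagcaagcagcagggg
Fabp1: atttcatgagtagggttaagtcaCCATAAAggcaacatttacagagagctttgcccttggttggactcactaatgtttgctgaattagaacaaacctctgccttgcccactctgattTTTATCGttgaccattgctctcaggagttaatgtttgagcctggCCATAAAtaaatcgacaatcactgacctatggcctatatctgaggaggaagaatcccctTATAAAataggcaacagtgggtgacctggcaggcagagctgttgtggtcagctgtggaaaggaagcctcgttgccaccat
Fabp2: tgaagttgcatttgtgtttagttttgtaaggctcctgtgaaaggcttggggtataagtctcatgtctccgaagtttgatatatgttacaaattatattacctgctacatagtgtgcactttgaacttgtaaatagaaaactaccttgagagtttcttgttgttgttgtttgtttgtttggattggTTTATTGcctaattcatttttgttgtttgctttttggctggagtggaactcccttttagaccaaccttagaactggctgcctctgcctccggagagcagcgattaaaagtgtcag

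Of the 10 members 7 were matched to a promoter, those of Apoa1, Apoa4, Apob, Mttp, Fabp1, Fabp2 and Cd36. Both strands were searched for 6 motifs. TTTATNG, a form bound by CDX2, the intestinal homeodomain factor, was found in 3 of 7 members, Apob, Fabp1 and Fabp2, and in 10.9% of 32851 promoters of the table. TATAAA, the TATA box, was found in Apob and Fabp1, and in 13.6% of all promoters. In Apob it overlaps the CDX2 match, so the 7 capitals there hold both. TGATAA, which the zinc finger factors of the Gata6 family bind, was found in Apoa1, downstream of the start, and in 9.05% of all promoters. CAAAGTCCA, an HNF4 motif, was in 0 of 7 members and in 0.475% of all promoters. The direct repeat DR1 bound by nuclear receptors was in 0 of 7 members and 0.0396% of all promoters, and the HNF1 motif in 0 of 7 and 0.0609%. Matches are descriptions of these letters in this window.

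Across every single-gene probe set fitted on its own, 0 of the 20 probe sets of the members were called, with 0.0687% of all probe sets called. The count at an unadjusted p under 0.05 was 1 of 20, again Fabp2, with 10.2% of all probe sets. Of the 20, 17 had the higher mean in penicillin mice, and the 3 others were those of Cd36. Several of these probe sets belong to the same gene. Among all genes tested, each counted once, 45.3% had the higher mean. Without control replicate 3 both probe sets of Mttp and the dimmer ones of Apob, Fabp1 and Dgat1 had the lower mean. All those of Cd36 then had the higher mean.

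Since enterocyte markers moved with the members, the fit was repeated with the mean of the 16 absorptive enterocyte markers of each array as a covariate, an alternative added after the data had been seen. Apoa4 then had the largest difference, at 0.48 ± 0.44 (SE), followed by Cd36 at 0.14 ± 0.28 and Fabp2 at 0.14 ± 0.07 (SE). The remaining members lay between -0.13 for Mttp and 0.11 for Apob. The mean was higher in penicillin mice for 6 of 10 members, and 0 of 10 were called. The marker mean was by far the lowest in control replicate 3, at -1.02, so this fit overlaps with leaving that array out. It also takes out any difference between the groups that the members share with the markers. The enterocyte markers themselves had 16 of 16 higher means in penicillin mice with a median of 0.42, or 10 of 16 with a median of 0.09 without control replicate 3, and 0 of 16 were called. Mme, the peptidase neprilysin, differed by 1.17 and Treh, trehalase, by 1.08, or 0.71 and 0.49 without control replicate 3.

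**Figure D3:**
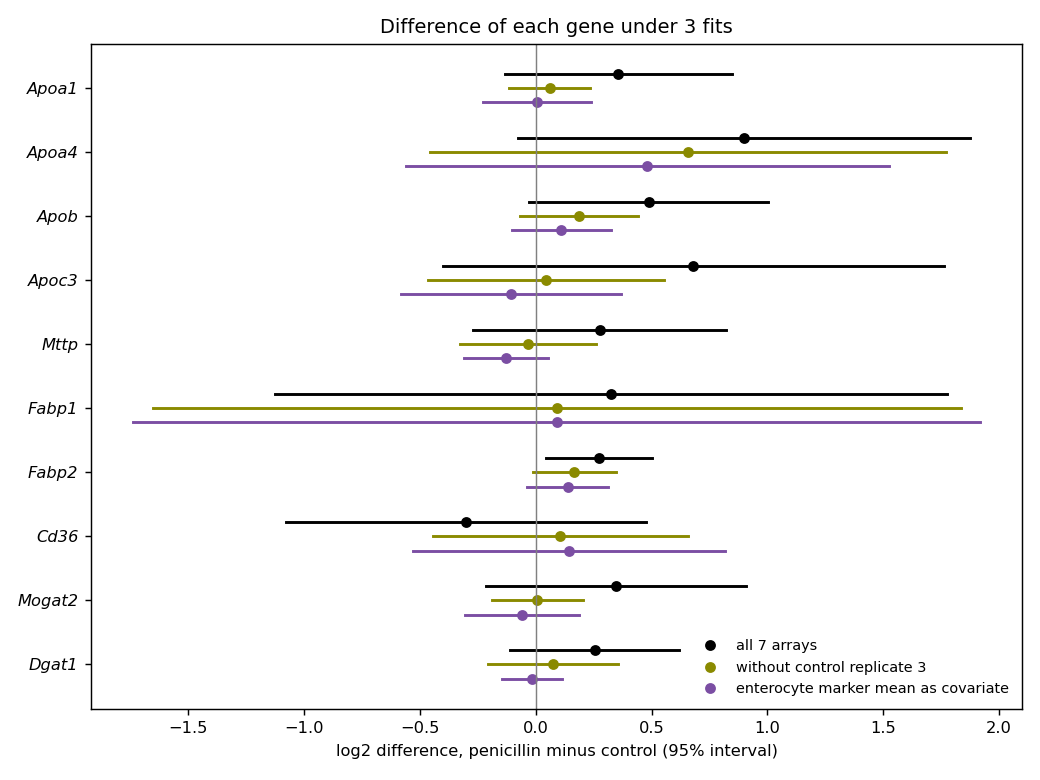
Points give the log2 difference, penicillin minus control, of each gene and lines its 95% interval, with all 7 arrays (black), without control replicate 3 (olive) and with the enterocyte marker mean as a covariate (purple). Only the interval of Fabp2 with all arrays lies above 0, from 0.05 to 0.50, and Apoa4 has the largest difference in each fit.

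Other genes of fat absorption were taken from a list of 45, of which 43 were on the arrays with a probe set of their own and 42 passed the filter. In limma 0 were called. At an unadjusted p under 0.05 there was 1 higher and 5 lower, or 6 of 42, where all genes had 4.37% higher and 6.35% lower. Groups did not overlap in 1 gene that was higher and 3 that were lower, against 4.29% and 6.05% of all genes. The median difference was 0.04, and -0.03 without control replicate 3. Control replicate 3 was the lowest array for 19 of the 42.

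Clps, the colipase that holds pancreatic lipase on fat droplets, had 11.21, 11.24, 11.27 and 11.46 in penicillin mice, against 11.63, 11.52 and 11.74 in control mice. Every penicillin value was below every control value. Clps differed by -0.33 ± 0.08 (SE, adjusted p = 0.265), and by -0.28 without control replicate 3. Sec23a, a coat protein of the vesicles that leave the endoplasmic reticulum, had 11.43, 11.40, 11.55 and 11.38 in penicillin mice, against 11.30, 11.24 and 11.02 in control mice. Here every penicillin value was above every control value, with a difference of 0.25 ± 0.08 (SE, adjusted p = 0.393). Agpat3, an acyltransferase of phospholipid and triglyceride synthesis, and Apoe, a ligand for lipoprotein uptake that macrophages also make, did not overlap either, at -0.20 and -0.42. Pnpla2, the lipase that opens triglyceride stores, differed by -0.20 and Apoc1, another small apolipoprotein, by -0.50, both with overlapping groups. None of these 6 was called. Clps, Agpat3, Apoe, Pnpla2 and Apoc1 all had their highest value in control replicate 3, and Sec23a had its lowest there. Apoe and Apoc1 were at 11.25 and 8.14 in that array. Without it Sec23a differed by 0.16, Agpat3 by -0.14, Apoe by -0.23, Pnpla2 by -0.12 and Apoc1 by -0.33.

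Of 29 transcription regulators listed for these genes 27 were on the arrays with a probe set of their own and 26 were tested, with 0 called in limma. At an unadjusted p under 0.05 there were 3 higher and 1 lower, while 4.37% of all genes were higher and 6.35% lower by that rule. Groups did not overlap in 2 that were higher and 1 that was lower, against 4.29% and 6.05% of all genes. Nr1h3, the oxysterol receptor LXR alpha, had 7.51, 7.65, 7.77 and 7.63 in penicillin mice, against 7.48, 7.30 and 7.26 in control mice, and the groups did not overlap. It differed by 0.29 ± 0.08 (SE, adjusted p = 0.308), and by 0.25 without control replicate 3. Hnf4g, a nuclear receptor of enterocytes, differed by 0.38 and Ppara, the fatty acid receptor, by 0.20, or 0.37 and 0.14 without that array. Ppard, a related receptor, had 8.28, 8.23, 8.15 and 8.18 in penicillin mice, against 8.46, 8.68 and 8.28 in control mice, and every penicillin value was below every control value. It differed by -0.27, and by -0.36 without that array. Gata6 and Cdx2 differed by 0.13 and 0.10. Creb3l3, known from mouse studies to activate Apoa4 and named here after its values were seen, had 9.30, 9.57, 10.06 and 10.35 in penicillin mice, against 9.24, 10.0015 and 8.73 in control mice. Its groups overlapped, and it differed by 0.50 ± 0.34 (SE, adjusted p = 0.586), or by 0.20 without control replicate 3.

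**Figure D4:**
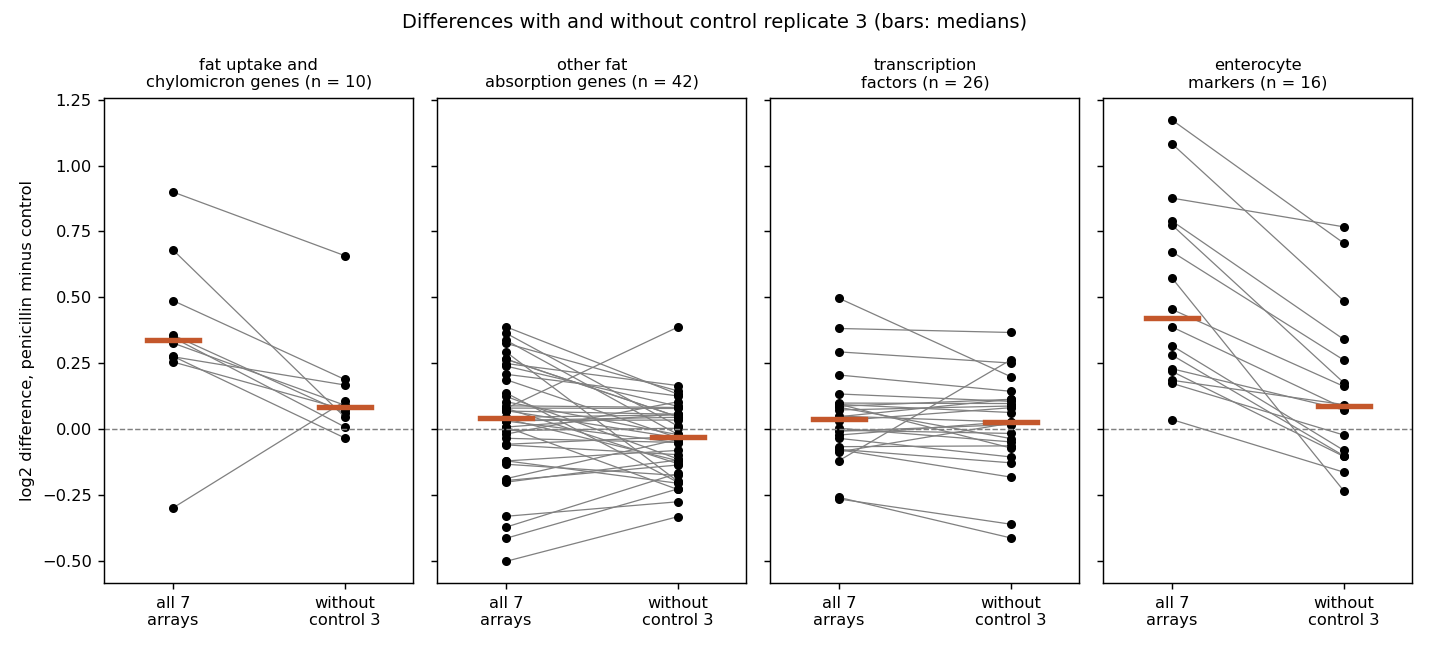
Each line joins the log2 difference (penicillin minus control) of 1 gene with all 7 arrays to its value without control replicate 3, for the members and 3 other lists, and bars mark medians. The medians of the members are 0.34 and 0.08 and those of the enterocyte markers 0.42 and 0.09, while those of the other fat absorption genes are 0.04 and -0.03.

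Members differed in how closely they followed one another. Over the 7 arrays, the root mean square difference between a member's centred log2 values and the mean of the other members was 0.157 for Dgat1, 0.169 for Mttp, 0.182 for Fabp2, 0.191 for Mogat2, 0.197 for Apoa1 and 0.205 for Apob. It was 0.486 for Apoc3, 0.547 for Apoa4, 0.771 for Fabp1 and 0.784 for Cd36. By the same measure the 6 genes outside the members closest to the members' mean were Acot4, Aldh1a7, Cgref1, Acy3, Slc16a5 and Aldh1a1, at 0.0748 to 0.102, where the median gene was at 0.344. Acot4 is a peroxisomal acyl-CoA thioesterase, Aldh1a1 a retinaldehyde dehydrogenase and Slc16a5 a monocarboxylate transporter. Acot4 had 6.91, 7.26, 7.43 and 7.59 in penicillin mice, against 7.07, 7.09 and 6.36 in control mice. Control replicate 3 was the lowest array for all 6, and their differences of 0.34 to 0.46 became 0.12 to 0.26 without it. Because the 6 were picked for closeness to the members' mean over these arrays, that likeness follows from the choice.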

How the data were processed

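Total RNA of the terminal ileum was labelled with biotin for Affymetrix arrays, per the labels' protocols; the growth text there speaks of livers. The authors deposited 1 log2 value per probe set and array, made with RMA (background correction, normalisation between arrays and summary of the probes of a set) and affy, per the submitters' processing notes. No version is recorded there. RMA gives no detection call, and the number of arrays limits the precision.

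The table held 45101 probe sets, of which 34945 with 1 gene in the 2016 platform annotation were used (932 listed several genes, 9211 none), with symbols updated by gene ID for 34741. Each of 18193 genes was represented by its probe set with the highest mean. Genes were tested where their mean exceeded the 25th percentile, log2 4.59, which kept 13644. They were fitted with limma 3.58.1 in R 4.3.3 (lmFit, eBayes, two-sided, Benjamini-Hochberg adjustment), with penicillin and control as the groups. The members, lists, motifs and tests were chosen with earlier results of these data known. Named genes are the members, the 6 of each pathway list with the largest moderated t, the 2 of each marker list with the largest difference, and the 6 closest to the members' mean. P4hb, Apobec1, A1cf, Apoa5, Creb3l3, Fabp6, Cubn, Ttr, Apoh and Bche lie outside that rule and were chosen after their values were seen. Slc26a3, Cidec, Retn, Lep, Pck1, Gata4, Cybrd1 and Slc46a1 also lie outside it. They are given, with their values known, as remaining tested markers of their lists. Alternatives were normalisation, filter, summary of probe sets, variance prior, array weights, replicate block, enterocyte covariate and leaving out each array. The fit was also run on simulated data, where 4.55% of calls were unchanged genes. Those data had independent noise and no array that stood apart, unlike the deposited values. They therefore give no error rate for these arrays. Figures were drawn with matplotlib 3.10.9.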

Additional observations from a re-analysis of the deposited data

Results flagged for a closer look

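Within the 4 penicillin arrays, Dixon's test at its 95% critical value was applied to the 20 probe sets of the members and to 12 named genes of the pathway lists, 32 in all. Chance flags about 1 in 20 such groups, and 2 of the 32 stood out. The brighter probe set of Apoa4 had penicillin replicate 1 at 9.96, far below the other penicillin arrays, with a gap of 0.968 of the whole range. Of the 4 Apoa1 probe sets 1 had penicillin replicate 3 at 14.48, above the others by 0.861 of a narrow range. The 3 control arrays are too few for this test.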

How the results depend on the processing

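Under 17 alternatives, no member was called in any, with adjusted p of 0.0732 (Fabp2, array quality weights) or higher. Of 170 member values 159 kept their direction. That count overstates the agreement. Changing the filter or the variance prior, or fitting every probe set on its own, leaves a member's difference unchanged by construction. The replicate block also gave the same differences as leaving out penicillin replicate 4. Over the fits without 1 array, Mttp ran from -0.035 (without control replicate 3) to 0.47, Fabp1 from -0.27 (without penicillin replicate 4) to 0.62 and Cd36 from -0.51 to 0.10 (without control replicate 3). With array quality weights Mttp was at -0.087 and Fabp1 at -0.28. With the enterocyte covariate, added after the data were seen, Apoc3, Mttp, Mogat2, Dgat1 and Cd36 were at -0.11, -0.13, -0.058, -0.015 and 0.14. The members' median ranged from 0.08 to 0.50 over the fits without 1 array. Calls over all genes were 13 in the main setting, 7 with probe sets averaged, 774 with array quality weights, 6 with the covariate, and 0 to 15 without 1 array. With array quality weights 1 of 42 fat absorption genes (Clps, adjusted p = 0.0306) and 1 of 26 regulators (Ppard, adjusted p = 0.0411) were called. The share over all genes in that fit was 5.67%. Control replicate 3 had the lowest weight, 0.249, and control replicate 2 had 0.464, against 4.53 for control replicate 1. The control mean of that fit thus rests mostly on control replicate 1. With the replicate block 0 genes were called and 803 had an unadjusted p under 0.05, and Fabp1 was at -0.27. No pairing of same-numbered arrays was given in the sources used here, and penicillin replicate 4 had no partner. Deviations of same-numbered arrays from their group means correlated at -0.164, 0.00297 and -0.416. Arrays of different number ran from -0.367 to 0.375. Whether same-numbered mice shared a litter or cage was not tested. The causes of these shifts were not tested.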

Other observations

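Marker lists of other cell types that the account of the members did not need gave the following values. Of 6 smooth muscle markers 6 had the lower mean in penicillin mice with a median of -0.16, Myh11 at -0.20 and Tagln at -0.19, and 0 were called. Without control replicate 3 the median was -0.23. Goblet cell markers had a median of -0.04, with Muc2, the main secreted mucin, at -0.17 and Spink4 at -0.15, and the median was -0.08 without that array. Proliferation and crypt markers had a median of -0.12, with Top2a at -0.28 and Cdk1 at -0.25. Without that array these were -0.02, -0.15 and -0.08. Of 4 hepatocyte genes, listed because the growth text speaks of livers, 3 had the higher mean in penicillin mice, with a median of 0.38, or 0.40 without control replicate 3, and 0 were called. Alb was at 5.45 to 7.95 in penicillin mice and 5.15 to 7.40 in control mice, a difference of 0.70. Ttr differed by 0.59, or 0.61 without that array, and every penicillin value was above every control value. Cyp2e1, which fat cells also make, differed by -0.75, or -0.45 without that array, with every penicillin value below every control value. Of the ileal enterocyte markers Fgf15, the hormone that the ileum releases in response to bile acids, differed by -1.14 ± 0.57 (SE, adjusted p = 0.508) and Slc10a2, the bile acid transporter, by 0.82 ± 0.23 (SE, adjusted p = 0.308). Without control replicate 3 these differences were -1.71 and 0.51. Of 6 proximal markers 3 had the higher mean in penicillin mice, with a median of -0.04, or -0.14 without that array, and 0 were called. Adh6a differed by -1.09 and the iron exporter Slc40a1 by -0.57, or -1.43 and -0.64 without that array. Bche, a cholinesterase, differed by 0.46, or 0.47 without that array, with every penicillin value above every control value. The groups did not overlap either for Slc10a2, which was higher, and for Adh6a and Slc40a1, which were lower. Of all genes tested 10.3% had groups that did not overlap.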
